A study of Mus musculus with 30 samples.

Results

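DNA replication and S-phase genes were followed through 30 RNA-seq libraries of mouse colon. They are 39 genes chosen by symbol for their known roles, not by a value, although earlier results of these data were known at that time. All 39 were found among the 14475 genes of the deposited table, and they fall into 8 roles: origin licensing (8 genes), helicase activation (5), DNA polymerases and primase (6), the sliding clamp and its loader (5), single strands and Okazaki fragments (3), deoxynucleotide supply (5), chromatin and DNA methylation behind the fork (4) and entry into S phase (3). Pieces of ascending and of descending colon from female mice gave total RNA, which was sequenced after removal of ribosomal RNA, as single reads of 50 nt. The mutants were built to lack enzymes that extend O-glycans, the sugar chains carried by mucins, in gut epithelium: they had floxed C1galt1, the tamoxifen-inducible Cre recombinase VillinCre-ERT2 driven by the Villin promoter of gut epithelial cells, and no functional C3GnT (C3GnT-/-, gene symbol B3gnt6). The study set them beside healthy control littermates, all with the same microbiota, in 3 cages. Each region had 7 control and 8 mutant libraries.

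Controls and mutants alike were injected with 0.5 mg tamoxifen (about 20 mg/kg) on each of 5 days, and were analysed 5 or 10 days after the last dose, the labels not saying which. The protocol calls the controls WT littermates and does not list their alleles, so whether they carried Cre is not stated. The genotype label of the mutants, TM-DKOAsc, stands on the ascending and on the descending mutant libraries. Cage A (2 controls, 3 mutants per region) was 3.4 months old and labelled C57BL/6 Background. Cage B (3 controls, 2 mutants) was 2.6 months old and cage C (2 controls, 3 mutants) 3.2 months old, both labelled Mixed BL/6-129SvJ. Housing, strain label and age thus go together for cage A and cannot be told apart. Libraries are named here by region, genotype, cage letter and number, as in descending mutant A3.

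Before a cell divides it must copy its genome once. In G1 the loaders Cdc6 and Cdt1 place rings of Mcm2 to Mcm7 on replication origins; Cdc45 and the GINS complex then turn each ring into a moving helicase. Primase and DNA polymerases alpha, delta and epsilon copy the strands, replication factor C loads the sliding clamp Pcna, Fen1 and Lig1 finish the lagging strand, and ribonucleotide reductase, thymidylate synthase and thymidine kinase supply the building blocks. Uhrf1 and Dnmt1 copy DNA methylation and Chaf1a and Chaf1b deposit histones on the new DNA. Most of these genes are transcribed around S phase under E2F factors, whereas genes of mitosis such as Mki67 and Ccnb1 peak later in the cycle. In the colon, S phase is found mainly in the dividing cells of the lower crypt, so in a piece of tissue the level of these transcripts depends on how many such cells it holds as well as on how much each makes. Fewer cells of a type and less RNA per cell cannot be told apart in these samples.

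Because the genes are known as E2F targets, the promoter sequence of each was searched for the E2F-type letters TTTCCCGC, TTTGGCGC, TTTCGCGC and TTTGCCGC on both strands, overlapping matches included. Promoters were the RefSeq windows of GRCm38.p6, from 250 bases before to 50 after a gene's start, and 32 of the 39 genes had one (not Mcm4, Gins1, Gins2, Prim2, Pole, Rfc2 and Ccne2). A match was found in 13 of the 32 (40.6%): Cdc6, Cdt1, Mcm3, Mcm5, Mcm6, Mcm7, Gins3, Pola1, Pold1, Rfc3, Lig1, Uhrf1 and Dnmt1. The share was 34% among other genes of the replication pathway (18 of 53), 8.33% among mitosis genes (1 of 12) and 4.37% over all genes of the table with a promoter (495 of 11337). Of the 13 genes with a match 6 belong to licensing. The CHR letters TTTGAA, which mark many promoters of mitosis genes, were in 7 of the 12 mitosis promoters (58.3%) but in 5 of the 32 replication promoters (15.6%), close to the 14.7% of all genes. The CCAAT letters were in 18 of the 32 (56.2%), against 42.5% of all genes. A match describes letters and not binding. The 5 stretches printed here were chosen because they lie upstream of the RefSeq start and outside every annotated exon of GENCODE M21, and because their genes span 3 roles and differ in their values below. They read 5′ to 3′ on the strand of the gene, with the E2F-type letters in capitals.
Mcm5 (chr8:75109332-75109391, plus strand): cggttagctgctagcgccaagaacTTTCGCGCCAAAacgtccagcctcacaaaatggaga
Mcm6 (chr1:128359740-128359820, minus strand): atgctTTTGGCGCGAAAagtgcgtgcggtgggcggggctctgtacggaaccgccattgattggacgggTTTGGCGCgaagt
Cdc6 (chr11:98907987-98908046, plus strand): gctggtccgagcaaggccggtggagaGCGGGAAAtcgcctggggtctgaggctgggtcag
Pola1 (chrX:93632260-93632319, minus strand): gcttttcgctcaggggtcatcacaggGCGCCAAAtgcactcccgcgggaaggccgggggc
Uhrf1 (chr17:56304102-56304161, plus strand): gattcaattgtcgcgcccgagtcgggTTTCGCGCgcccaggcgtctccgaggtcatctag
Mcm6 had 3 matches and Mcm5 had 2 that overlap, one on each strand, while Cdc6, Pola1 and Uhrf1 had 1 each. The Mcm5, Mcm6 and Pola1 stretches lie outside every annotated gene, and the Cdc6 and Uhrf1 stretches lie inside their own annotated genes, between exons.

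Values are FPKM, reads scaled to gene length and to the size of the library. Tests were made with limma on log2(FPKM + 1), two-sided, with Benjamini-Hochberg adjustment over all genes whose mean reached 0.5 FPKM, and a gene passed at an adjusted p under 0.05. A fold on this scale understates the change of low genes. The table gives no read counts. Depth was estimated from the steps between low values and was 1.43 to 8.86 M reads over the 30 libraries, with the 3 ascending mutants of cage A lowest (1.43 to 1.59 M) and no descending mutant under 6.58 M. At the lowest depth 1 read of Gins3 is worth about 0.259 FPKM, so the lowest genes rest on few reads there. Hoxb13 and Hoxd13, marks of the distal colon, check the region labels. Hoxd13 was listed at 0 in all 15 ascending libraries and Hoxb13 at 4.55 FPKM or less. In descending controls Hoxb13 was 205 to 341 FPKM and Hoxd13 82.4 to 123, except in descending control A2 with 44.5 and 0.38, so the main results that use this library are also given without it. Epcam, an epithelial surface protein, was 322 FPKM in descending mutant C1 and 713 to 899 in the other 7 descending mutants; it was 416 FPKM in descending control A2 and 635 to 1011 in the other 6 descending controls. C1galt1, the floxed gene, ranged over 21.5 to 45.7 FPKM in ascending controls and 18.3 to 34.3 in ascending mutants, and over 28.0 to 38.7 and 14.6 to 36.7 in the descending groups, which overlap; which exons the deletion removes is not stated in the labels. B3gnt6 was at 0.53 FPKM or less in all 16 mutant libraries, and at 0.60 or less in all control libraries except ascending controls B1 (9.52) and B2 (19.5).

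The 39 genes were measured at low to moderate levels. Summed over all of them, a library held 99.9 to 169.9 FPKM in ascending controls (median 138.7), 113 to 224 in ascending mutants (median 173), 149 to 303 in descending controls (median 208) and 120.0 to 471 in descending mutants (median 196). By mean over all 30 libraries, the highest and lowest genes of licensing were Mcm6 and Cdc6, those of helicase activation Mcm10 and Gins3, those of the polymerases Pola2 and Prim2, those of the clamp and loader Pcna and Rfc5, those of the lagging strand Lig1 and Rpa2, those of nucleotide supply Dut and Tk1, those of chromatin Dnmt1 and Chaf1b, and those of S-phase entry E2f1 and Ccne1. Dnmt1, the enzyme that maintains DNA methylation, reached 28.1 FPKM and Pcna, the clamp that rides behind the polymerase, 31.4 FPKM, whereas Gins3, a subunit of the helicase, never passed 2.67 FPKM and was listed at 0 in ascending mutant A3. The spread over libraries was widest for Mcm6 (3.10 to 30.2 FPKM, SD 0.68 on the log2 scale), Rfc4 (0.70 to 10.3, SD 0.64) and Rrm2 (1.26 to 19.1, SD 0.63). It was narrowest for Rfc2 (4.11 to 7.95, SD 0.23), a loader subunit, and for Mcm10 and Pola2 (SD 0.32 each). Whether reads were counted by strand is not stated in the labels, and 11 of the genes overlap a coding gene on the other strand. Rfc4 with Eif4a2, Rfc2 with Lat2 and Mcm7 with Cops6 and Ap4m1 are among them. Eif4a2 is far higher than Rfc4 (32.9 to 79.4 FPKM), whereas Lat2 (0 to 2.16 FPKM) is lower than Rfc2. Reads of such pairs cannot be told apart without strand. Cdt1 overlaps the coding gene Gm20388 on its own strand, where counting by strand would not separate shared reads.

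**Figure D1:**
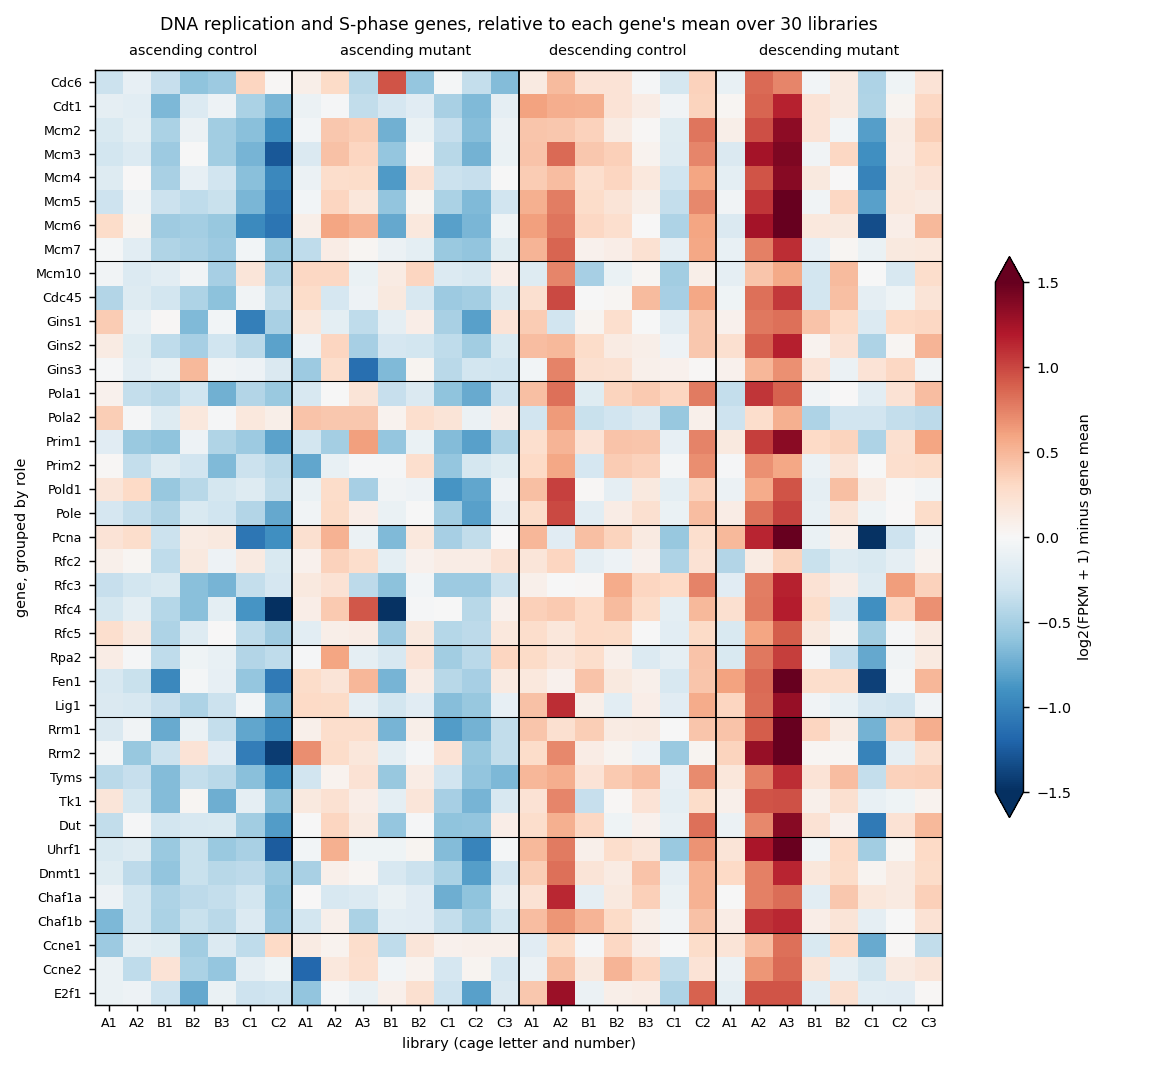
Each row is 1 of the 39 genes, grouped by role, and each column 1 of the 30 libraries; colour is log2(FPKM + 1) minus the gene's mean over all libraries, cut off at 1.5 in either direction. The ascending libraries on the left are mostly blue and the descending ones mostly red, with descending mutants A2 and A3 the darkest red columns and descending mutant C1 blue for most genes.

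In control mice 29 of the 39 genes were called lower in the ascending than in the descending colon, and none higher. The difference was below 0 for 38 of the 39, with a median log2 difference of -0.62, and 10 genes did not pass. Over all 12515 genes tested, 25.1% were called lower and 12.8% called higher in the ascending colon, with a median of -0.14. The difference was below 0 for 37 of 39 genes within cage A (median -0.58, and -0.48 without descending control A2), 38 within cage B (-0.54) and 35 within cage C (-0.72). In 7 genes (Cdt1, Pole, Rfc3, Rrm1, Tyms, Dnmt1 and Chaf1b) every ascending control lay below every descending control, which held for 6.89% of all genes tested. The same 7 genes met this without descending control A2, as did 11.2% of all genes.

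Origin licensing accounted for 7 of the 29 calls, Cdt1 and the 6 ring subunits Mcm2 to Mcm7. Mcm3 (ENSMUSG00000041859.10, chromosome 1, 20802968 to 20820312 in GRCm38), which differed most in this role, was 2.24 to 6.78 FPKM (median 4.47) in ascending controls and 5.86 to 13.1 FPKM (median 9.36) in descending controls. The ranges overlap only through descending control C1 at 5.86 FPKM and ascending control B2 at 6.78. Its log2 difference was -0.88 ± 0.17 (SE, n = 7 and 7, limma adjusted p = 0.00136). Mcm6, whose promoter carries 3 E2F-type matches, had a mean of 6.76 ± 2.75 FPKM (SD) in ascending and 12.1 ± 3.56 in descending controls (log2 difference -0.78, adjusted p = 0.00101). Mcm2 was 1.73 to 3.87 FPKM (median 2.74) against 3.55 to 8.05 FPKM (median 5.58) (log2 difference -0.71). Mcm4, Mcm5 and Mcm7 gave -0.65, -0.76 and -0.65, and all 6 ring subunits lay between -0.88 and -0.65. Cdt1, the partner that brings the ring to the origin, separated fully, with 3.71 to 6.2 FPKM (median 5.57) against 6.29 to 10.5 FPKM (median 8.55) (adjusted p = 5.51e-04). The other loader, Cdc6, was 0.53 to 1.91 FPKM (median 0.87) against 0.94 to 2.23 FPKM (median 1.68); its groups overlap and its difference of -0.38 did not pass (adjusted p = 0.0555).

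Helicase activation was split. Gins2 (0.46 to 1.77 FPKM (median 0.95) against 1.41 to 2.56 FPKM (median 2.09), log2 difference -0.60, adjusted p = 0.00117) and Cdc45 (-0.60, adjusted p = 0.021) were called lower in the ascending colon. Mcm10, a scaffold that joins the helicase to polymerase alpha, was 1.57 to 3.12 FPKM (median 2.24) in ascending and 1.53 to 5.01 FPKM (median 2.38) in descending controls. These ranges largely coincide, and the difference of -0.11 had a 95% interval of -0.49 to 0.26. Gins1 and Gins3, the lowest genes of the role, gave -0.37 and -0.21 and did not pass. Descending control A2 was the highest control for Mcm10 (5.01 FPKM) and Gins3 (2.67) and the lowest descending control for Gins1 (1.08).

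Among polymerases and primase 5 of 6 genes were called lower in the ascending colon. Pola1, the catalytic subunit of polymerase alpha, was 1.35 to 3.06 FPKM (median 1.92) in ascending controls and 2.42 to 5.87 FPKM (median 4.09) in descending controls (log2 difference -0.81 ± 0.14, adjusted p = 5.79e-04). Prim1, the catalytic primase subunit that works in the same complex, gave -0.81 ± 0.15 (adjusted p = 7.77e-04), and Prim2, the other primase subunit, -0.60. Pole and Pold1, the catalytic subunits of the leading- and lagging-strand polymerases, gave -0.66 and -0.43. Pola2 (ENSMUSG00000024833.14, chromosome 19, 5940542 to 5964202), the regulatory subunit that binds Pola1 and primase, was the single gene of the 39 on the other side. It was 7.35 to 11.3 FPKM (median 9.16) in ascending controls and 5.44 to 13.9 FPKM (median 6.84) in descending controls. Of the 7 descending controls 5 lay below every ascending control, whereas C2 reached 9.14 and A2, at 13.9 FPKM, lay above all of them. The difference of 0.22 did not pass (adjusted p = 0.275). Without ascending control B1 and descending control A2, the pair set aside because of their Hoxb13 and Hoxd13 values, 28 genes were called lower and 1 higher, with 43% of all genes called in either direction. Without descending control A2 alone the counts were 30 and 1, with 43.9% of all genes called, against 37.9% with every library.

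**Figure D2:**
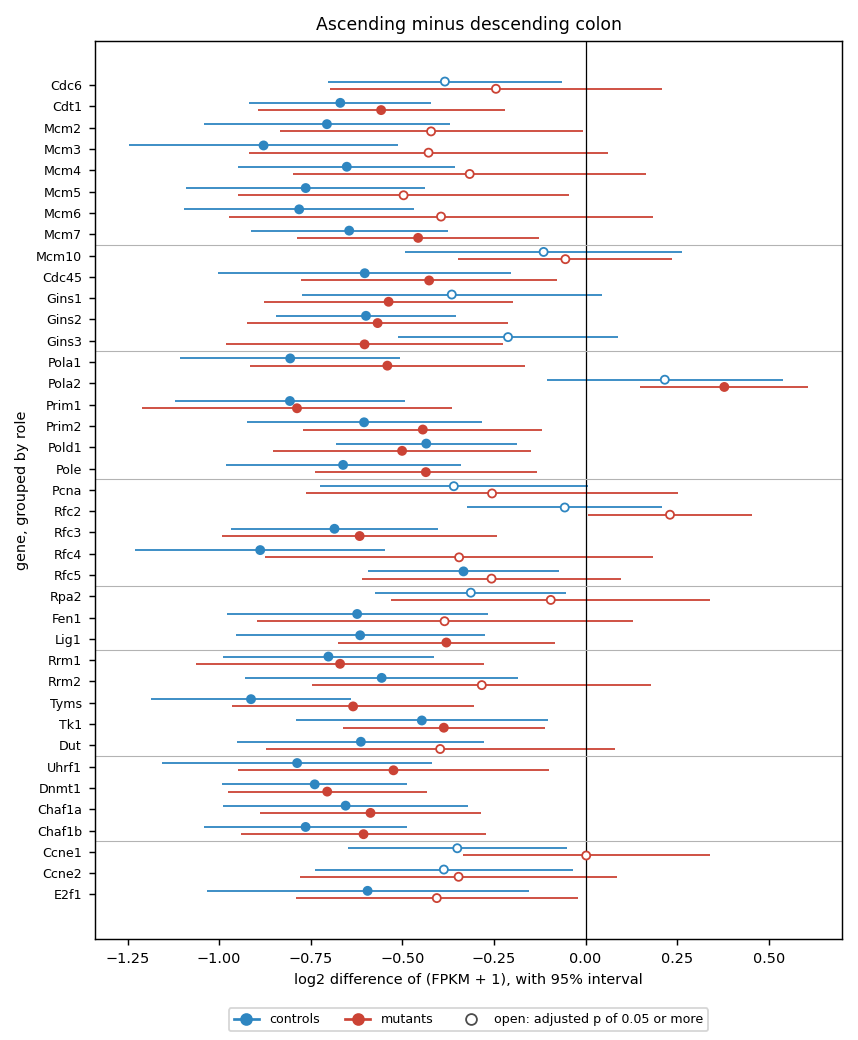
Points give the log2 difference of FPKM + 1, ascending minus descending, for each of the 39 genes with its 95% interval, blue for controls and red for mutants; filled points passed an adjusted p of 0.05. In controls 29 points are filled and all lie left of 0, and in mutants 20 filled points lie left of 0 and Pola2 lies right of it.

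The clamp and its loader were called in 3 of 5 genes. Rfc4 was 0.7 to 3.5 FPKM (median 2.7) in ascending and 3.5 to 6.01 FPKM (median 5.4) in descending controls (log2 difference -0.89 ± 0.16, adjusted p = 7.19e-04). Ascending control C2 was lowest at 0.7 FPKM, and the groups touch at 3.5, the value of ascending controls A2 and B3 and of descending control C1. Rfc3 separated fully (1.65 to 2.65 FPKM (median 2.37) against 3.27 to 6.21 FPKM (median 4.27), difference -0.69), while Rfc5 differed less (-0.33, adjusted p = 0.0447). Rfc2, a subunit of the same loader, was 4.43 to 6.79 FPKM (median 6.19) against 4.11 to 7.81 FPKM (median 6.37), with a difference of -0.057 and a 95% interval of -0.32 to 0.21. Pcna was 4.1 to 11.9 FPKM (median 10.8) in ascending and 6.27 to 14.2 FPKM (median 11.9) in descending controls. Ascending controls C1 and C2 were the lowest for Pcna (4.1 and 4.7 FPKM), the other 5 overlap the descending range, and the difference of -0.36 did not pass (adjusted p = 0.112). GENCODE M21 also names pseudogenes of Pcna and Tyms, whose reads these 2 genes may share.

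On the lagging strand, Fen1, which trims the RNA-primed flaps, gave -0.62 (adjusted p = 0.00976) and Lig1, which seals the nicks, -0.62 (adjusted p = 0.00791). Rpa2, a subunit of the protein that coats single strands, gave -0.31 and did not pass (adjusted p = 0.0559). All 5 genes of deoxynucleotide supply were called lower in the ascending colon. Tyms, the thymidylate synthase (ENSMUSG00000025747.12, chromosome 5, 30058202 to 30073617), differed most of the 39 genes. It was 1.5 to 2.68 FPKM (median 2.53) in ascending controls and 3.31 to 6.67 FPKM (median 5.44) in descending controls, with no overlap. The means were 2.27 ± 0.445 and 5.2 ± 1.08 FPKM (SD, n = 7 and 7) and the log2 difference -0.91 ± 0.13 (adjusted p = 9.72e-05). Rrm1, the large subunit of ribonucleotide reductase, also separated fully (1.84 to 4.34 FPKM (median 3.31) against 4.49 to 6.4 FPKM (median 5.52), difference -0.70). Its small subunit Rrm2 overlapped widely (1.26 to 5.97 FPKM (median 3.85) against 3.12 to 8.98 FPKM (median 5.24), difference -0.56, adjusted p = 0.022). Dut, which keeps uracil out of DNA, gave -0.61 and Tk1, the salvage thymidine kinase, -0.45 (adjusted p = 0.0412).

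All 4 genes that act on chromatin and methylation behind the fork were called. Dnmt1 (ENSMUSG00000004099.16, chromosome 9, 20907209 to 20959888) was 7.77 to 10.6 FPKM (median 9.06) in ascending controls and 11 to 22.3 FPKM (median 16) in descending controls. The highest ascending control (A1) and the lowest descending control (C1) lay next to each other, without overlap, and the difference was -0.74 ± 0.12 (adjusted p = 2.81e-04). Chaf1b, of the histone chaperone CAF-1, had a mean of 1.47 ± 0.282 FPKM (SD) in ascending and 3.23 ± 0.714 in descending controls, without overlap (-0.76, adjusted p = 4.54e-04), and its partner Chaf1a gave -0.65. Uhrf1, which guides Dnmt1 to half-methylated DNA, gave -0.79 (adjusted p = 0.00288). Of the genes that open S phase only E2f1 passed (0.98 to 2.19 FPKM (median 1.75) against 1.44 to 7.23 FPKM (median 2.63), difference -0.59, adjusted p = 0.0347). The cyclins Ccne1 (-0.35, adjusted p = 0.062) and Ccne2 (-0.39, adjusted p = 0.0779) lay below 0 and did not. Of the 13 genes with the E2F-type letters 11 were called lower in the ascending colon (median -0.69), and of the 19 without them 14 (median -0.60).

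Of 65 other replication genes tested 34 were called lower in the ascending colon and 0 higher, 31 did not pass, and the median was -0.36. Those called included Top2a, the topoisomerase that untangles copied chromosomes (-0.73, adjusted p = 0.001), Asf1b, a histone chaperone (-0.85, adjusted p = 0.00204), Pole2, the second subunit of polymerase epsilon (-0.76, adjusted p = 0.00706), and Rfc1, the large loader subunit (-0.59, adjusted p = 0.00064). Of 14 mitosis genes 11 were called lower, with a median of -0.62, Mki67 most (-0.95, adjusted p = 0.000128). Marker genes of other cells also differed between the regions in the same libraries. Of 9 crypt base and transit cell markers 6 were called lower in the ascending colon (summed level 105 to 181 FPKM in ascending and 169.7 to 285 in descending controls), and of 6 T cell markers 6 were called higher (8.61 to 23.8 against 1.45 to 3.60, with up to 1 of the 7 listed T cell genes at 0 in an ascending and up to 2 in a descending control). All 8 smooth muscle markers lay below 0 (median -1.49, 1 called), with summed levels of 11.6 to 416 and 27.0 to 430 FPKM that overlap widely. Epithelial markers summed to 3000 to 4646 and 2511 to 5491 FPKM, with 2 of 8 called higher. Markers of absorptive colonocytes summed to 6905 to 13084 FPKM in ascending and 2022 to 4891 in descending controls, without overlap. Goblet cell markers summed to 2964 to 12021 FPKM (median 9531) against 3082 to 6243 (median 4228), which overlap. The part these markers have in the regional difference was not tested. Without cage B the count of replication genes called lower was 17, with 16.4% of all genes called in either direction and a median of -0.72. Under median-of-ratios scaling, which moved the median of all genes by 0.135, 25 of the 39 were called lower and 1 higher, with 32.2% of all genes called.

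**Figure D3:**
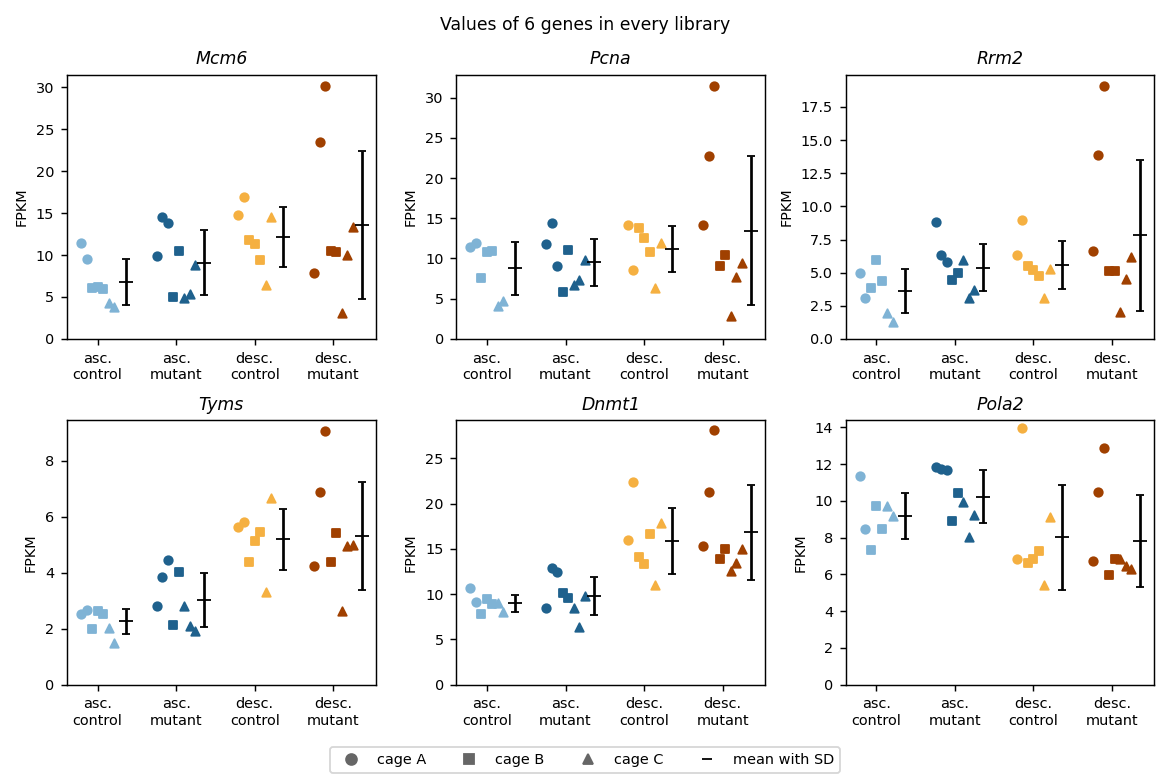
Each point is 1 library, by group on the horizontal axis and in FPKM on the vertical axis, for Mcm6, Pcna, Rrm2, Tyms, Dnmt1 and Pola2; symbols give the cage and the bar beside each group its mean and SD. Tyms and Dnmt1 separate ascending from descending controls, Pola2 does not, and descending mutants A2 and A3 are the 2 highest points of their group in every panel.

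In mutants 20 of the 39 genes were called lower in the ascending colon and 1 higher. The difference was below 0 for 36, with a median of -0.43. Of all 12203 genes tested 29.7% were called lower and 14.3% higher, with a median of -0.16. The groups overlapped for all 39 genes, whereas 7.27% of all genes were lower in every ascending than in every descending mutant. Within cages, 37 of 39 genes were lower in cage A (median -0.67), 32 in cage B (-0.26) and 32 in cage C (-0.34). Called lower in controls and in mutants were 18 genes: Cdt1, Mcm7, Cdc45, Gins2, Pola1, Prim1, Prim2, Pold1, Pole, Rfc3, Lig1, Rrm1, Tyms, Tk1, Uhrf1, Dnmt1, Chaf1a and Chaf1b. These make up 18 of the 29 genes called lower in controls and 18 of the 20 called lower in mutants. The share of all genes called lower in both genotypes was not computed. Some of these calls depended on the fit. In mutants Cdc45 did not pass in 17 of 27 alternative fits, Lig1 in 15 of 27 and Prim2 in 10 of 26. Dnmt1, Tyms, Prim1 and Chaf1b passed in all 27.

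Dnmt1 had the lowest adjusted p of the 39, with 6.42 to 12.9 FPKM (median 9.71) in ascending mutants and 12.6 to 28.1 FPKM (median 15) in descending mutants. Ascending mutant A2 (12.9 FPKM) and descending mutant C1 (12.6) are the only libraries in the overlap, and the difference was -0.70 ± 0.13 (SE, n = 8 and 8, adjusted p = 3.26e-04). Tyms gave -0.63 ± 0.16 (adjusted p = 0.00363), Prim1 -0.79 ± 0.20 (adjusted p = 0.00462), Chaf1a -0.59 (adjusted p = 0.00331) and Rrm1 -0.67 (adjusted p = 0.00823). Helicase activation was called in 4 of 5 genes here, Cdc45, Gins1, Gins2 and Gins3. Gins1 was 0.44 to 1.94 FPKM (median 1.31) against 1.2 to 3.49 FPKM (median 2.13) (difference -0.54, adjusted p = 0.0124). Gins3 gave -0.60 (adjusted p = 0.0122), with ascending mutant A3, one of the shallowest libraries, listed at 0. Pola2 was the gene called higher. It was 8.01 to 11.8 FPKM (median 10.2) in ascending mutants and 5.98 to 12.9 FPKM (median 6.79) in descending mutants, where A2 (10.5 FPKM) and A3 (12.9) stood above the other 6. The difference was 0.38 ± 0.11 (adjusted p = 0.00998), opposite in sign to that of its binding partners Pola1 (-0.54) and Prim1.

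Of the licensing genes only Cdt1 (-0.56, adjusted p = 0.00973) and Mcm7 (-0.46, adjusted p = 0.0255) passed in mutants. Mcm6 was 4.84 to 14.5 FPKM (median 9.38) in ascending and 3.1 to 30.2 FPKM (median 10.4) in descending mutants. The descending range spans the whole ascending one, with C1 at 3.1 and A3 at 30.2 FPKM, and the difference of -0.39 ± 0.27 did not pass (adjusted p = 0.255). Mcm2, Mcm3, Mcm4 and Mcm5 gave -0.42, -0.43, -0.32 and -0.50 without passing. Pcna, Rfc2, Rpa2, Cdc6, Mcm10 and both E cyclins passed in neither genotype. Other pathway genes counted 25 called lower and 3 higher of 65, and mitosis genes 10 lower of 14. Within these libraries all 8 smooth muscle markers (summed level 5.36 to 49.9 against 34.2 to 275 FPKM) and 5 of 7 fibroblast markers (10.8 to 43.5 against 13.0 to 77.2) were called lower in the ascending colon. Markers of absorptive colonocytes summed to 12110 to 20057 FPKM in ascending and 1968 to 4394 in descending mutants, without overlap. Crypt base and transit cell markers summed to 98.2 to 171 FPKM in ascending and 137 to 211 in descending mutants, which overlap. Goblet cell markers (3630 to 11105 against 2566 to 10997) and epithelial markers (3773 to 5177 against 2646 to 5667) overlap too. T cell markers summed to 5.81 to 16.6 against 1.41 to 3.60, with up to 2 listed genes at 0 in a library of either group. The part of these markers in the result was not tested. The count moved with the processing, and so did the share of all genes called in either direction, which was 44% in the fit reported here. Of the 39 genes 13 genes were called under median-of-ratios scaling (11 lower, 2 higher; median of all genes moved by 0.129) with 37.8% of all genes, 10 under quantile normalization (8 lower, 2 higher; moved by 0.116) with 35.9%, 9 without cage A with 37%, and 9 without cage C with 28.9%.

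In the ascending colon no replication gene passed the comparison of mutants with controls. Of all 12178 genes tested 0% passed with limma, the lowest adjusted p being 0.212, while 1396 genes had an unadjusted p under 0.05. Of the 39 genes 37 were higher in mutants, with a median log2 difference of 0.16, against a median of -0.05 over all genes. An unadjusted p under 0.05 was reached by 8 genes, all higher in mutants (Rrm2, Uhrf1, Fen1, Tyms, Pole, Mcm3, Mcm5 and Mcm6), where 3.46% of all genes reached it in that direction. The mutants were higher for 29 of 39 genes within cage A (median 0.25), 33 within cage B (0.17) and 25 within cage C (0.11), and 15 genes were higher in all 3 cages. The shares of all genes that met these counts were not computed.

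Rrm2, the small subunit of ribonucleotide reductase and the one whose level limits the enzyme, had the largest difference. Rrm2 (ENSMUSG00000020649.11, chromosome 12, 24708241 to 24714146) was 1.26 to 5.97 FPKM (median 3.85) in ascending controls and 3.09 to 8.83 FPKM (median 5.38) in ascending mutants. Ascending controls A2, C1 and C2 lay below every mutant, and mutants A1 (8.83) and A2 (6.34) above every control, with the rest overlapping. The difference was 0.56 ± 0.18 (SE, 7 controls and 8 mutants, limma adjusted p = 0.3), with cage differences of 0.68 in A, 0.009 in B and 0.98 in C. Uhrf1 was 2.28 to 5.76 FPKM (median 4.53) against 2.9 to 10.3 FPKM (median 6.5), with mutant A2 highest at 10.3 FPKM (difference 0.38 ± 0.15, adjusted p = 0.378). Tyms was 1.5 to 2.68 FPKM (median 2.53) against 1.92 to 4.44 FPKM (median 2.82). Of the 8 mutants 5 exceeded every control, while C2, C3 and B1 lay within the control range, and the difference of 0.28 ± 0.12 did not pass (adjusted p = 0.405). Fen1 gave 0.41 ± 0.18 (adjusted p = 0.397) and Rfc4 0.48 ± 0.25 (adjusted p = 0.475). For Rfc4 the mutants spanned 0.79 FPKM in B1 to 8.55 in A3, wider than the 0.7 to 3.5 FPKM of the controls.

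All 8 licensing genes lay above 0 (0.085 to 0.36), led by Mcm3 (0.36 ± 0.16, adjusted p = 0.408). Mcm3 was 3.78 to 9.59 FPKM (median 6.03) in ascending mutants, where A2 and A3 were the highest and C2 the lowest. Mcm6 gave 0.33 and Mcm2 0.27. Pcna was 5.81 to 14.4 FPKM (median 9.46) in mutants, close to the 4.1 to 11.9 FPKM (median 10.8) of controls (difference 0.16, 95% interval -0.21 to 0.52). Ccne1, the cyclin that drives the entry into S phase, gave 0.27 and its relative Ccne2 0.071. The 2 genes below 0 were Gins3 (-0.33) and Pold1 (-0.099). Calls appeared under 3 alternatives. With array quality weights 4 genes were called higher in mutants (Mcm5, Rfc4, Fen1 and Tyms) among 746 genes called in all, without cage B 3 (Rfc4, Fen1 and Rrm2) among 652, and without ascending mutant B1 1 (Rfc4) among 170.

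Other gene groups had differences in these same libraries. The 14 mitosis genes all lay above 0 (median 0.44, 10 with an unadjusted p under 0.05, 0 called), and 48 of 64 other pathway genes lay above 0 (median 0.087, 0 called). All 8 smooth muscle markers lay below 0 (median -1.12; summed level 11.6 to 416 FPKM in controls, 5.36 to 49.9 in mutants), as did all 7 fibroblast markers (median -0.94; 27.7 to 78.6 against 10.8 to 43.5), 6 of 6 T cell markers (median -0.46) and 9 of 9 crypt base and transit cell markers (median -0.24; 105 to 181 against 98.2 to 171). All 6 macrophage markers lay below 0 (median -0.75, 4 with an unadjusted p under 0.05; 17.9 to 193 against 5.47 to 71.5 FPKM), with up to 3 genes of that list at 0 in a mutant, and so did all 3 erythroid genes tested (median -1.22). Of 9 markers of absorptive colonocytes 7 lay above 0 (median 0.41, 3 with an unadjusted p under 0.05; 6905 to 13084 against 12110 to 20057 FPKM), among them Car1, a carbonic anhydrase (1.13, adjusted p = 0.214), and Alpi, an alkaline phosphatase (0.97, adjusted p = 0.214). Of 8 epithelial markers 6 lay above 0 (median 0.18). Goblet cell markers summed to 2964 to 12021 FPKM (median 9531) in controls and 3630 to 11105 (median 7082) in mutants, which overlap. None of these markers passed the test, and their part in the differences of the replication genes was not tested. The cage A mutants were also the shallowest libraries.

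**Figure D4:**
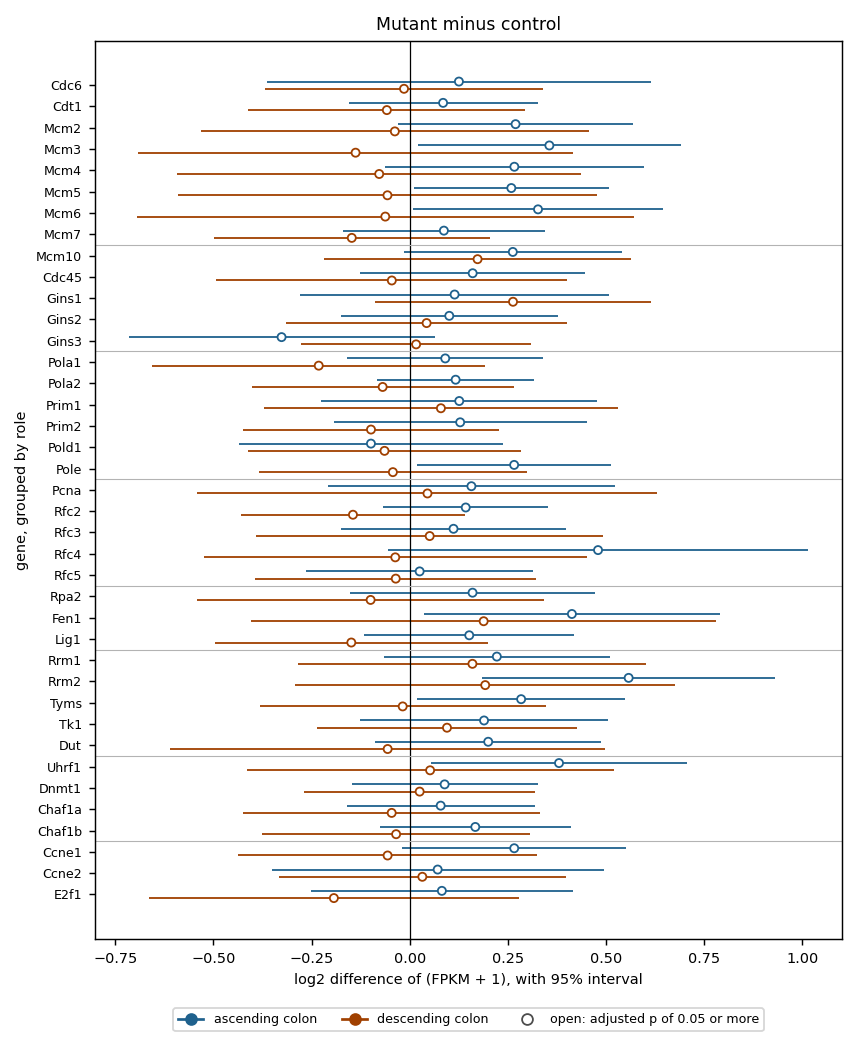
Points give the log2 difference of FPKM + 1, mutant minus control, for each of the 39 genes with its 95% interval, blue for the ascending and brown for the descending colon; open points did not pass an adjusted p of 0.05. All points are open; 37 of the ascending and 14 of the descending points lie right of 0.

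In the descending colon no replication gene passed the comparison of mutants with controls either. Of all 12219 genes tested 0% passed with limma (267 at an unadjusted p under 0.05), and none of the 39 had an unadjusted p under 0.05. The genes lay on both sides of 0, 14 above and 25 below, with a median of -0.04, equal to that of all genes (-0.04). Gins1 had the lowest unadjusted p (1.08 to 2.37 FPKM (median 1.62) in controls, 1.2 to 3.49 FPKM (median 2.13) in mutants, difference 0.26 ± 0.16, limma adjusted p = 0.999). All 8 licensing genes lay slightly below 0, from -0.15 for Mcm7 to -0.014 for Cdc6. The intervals are wide: Mcm6 gave -0.062 with a 95% interval of -0.70 to 0.57, and Pcna 0.045 with -0.54 to 0.63. Differences within these limits, in either direction, are not excluded by these data. Rrm2 (0.19), Fen1 (0.19) and Rrm1 (0.16) had values above 0, and Pola1 (-0.23) and E2f1 (-0.19) below it. The 14 mitosis genes, by contrast, were all above 0 (median 0.33, 3 with an unadjusted p under 0.05, 0 called). Of 9 crypt base and transit cell markers 8 lay below 0 (median -0.31, 2 with an unadjusted p under 0.05; summed level 169.7 to 285 FPKM in controls and 137 to 211 in mutants), among them Lgr5, a receptor of crypt base stem cells (-0.76, adjusted p = 0.999). All 8 smooth muscle markers (median -0.67; 27.0 to 430 against 34.2 to 275) and all 7 fibroblast markers (median -0.37; 19.2 to 110.1 against 13.0 to 77.2) lay below 0, 5 of 6 macrophage markers did (median -0.45), and all 8 epithelial markers lay above 0 (median 0.20). Goblet cell markers summed to 3082 to 6243 FPKM (median 4228) in controls and 2566 to 10997 (median 4989) in mutants. Markers of absorptive colonocytes summed to 2022 to 4891 (median 2450) and 1968 to 4394 (median 3436), and both lists overlap. No marker passed, and the part of the markers was not tested. The cages went different ways: mutants were higher for 30 of 39 genes in cage A (median 0.19; 38 and 0.37 without descending control A2, which leaves 1 control in the cage), 10 in cage B (-0.08) and 6 in cage C (-0.16), and only Mcm10 and Gins1 were higher in all 3.

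A few descending libraries stood apart for almost the whole set. Descending mutants A2 and A3, both of cage A, exceeded the other 6 descending mutants in 38 of the 39 genes, Mcm10 being the exception (3.83 and 4.35 FPKM against 4.05 in B2). The same held for 7.57% of the 12219 genes tested and for 0 of the 14 mitosis genes. These libraries were noticed in the values and belong to no group of their own, so no test was made of them. Mcm6 was 23.5 FPKM in A2 and 30.2 in A3, against 3.1 to 13.3 in the other 6. Pcna was 22.7 and 31.4 against 2.86 to 14.1, and Rrm2 13.9 and 19.1 against 2.01 to 6.6. Descending mutant A3 was the highest of all 30 libraries for 29 of the 39 genes and for 12 of the 14 mitosis genes, a count not made over all genes. Descending mutant A2 differed from it in the mitosis genes: their mean was 3.13 on the log2 scale in A2 and 4.12 in A3, with 3.00 to 3.66 in the other 6 mutants, whereas the mean of the replication genes was 3.15 and 3.42 against 1.86 to 2.55. The third mutant of cage A, A1, had 2.34 for replication and 3.47 for mitosis genes. Estimated depth was 7.27 M reads in A2 and 7.01 M in A3, between the 6.58 and 8.86 M of the other 6. Crypt base and transit cell markers summed to 156 FPKM in A2 and 177 in A3, against 137 to 211 in the other 6. Smooth muscle markers summed to 34.2 and 129 against 57.2 to 275, and epithelial markers to 5605 and 5667 against 2646 to 5346. Goblet cell markers summed to 3154 FPKM in A2, within the 2566 to 6596 of the other 6, and to 10997 in A3, above them. The part of these markers was not tested.

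At the other end, descending mutant C1 was the lowest of the 8 descending mutants for 26 of the 39 genes and lay below all 7 descending controls for 22. The shares of all genes that met this were not computed. FPKM summed over all genes was 201203 in this library, the lowest of the 30. Its erythroid markers summed to 137 FPKM, the highest of the 30, against 1.41 to 61.3 in the other descending mutants. Pcna was 2.86 FPKM there and 6.27 to 14.2 in the controls, Fen1 1.34 against 4.21 to 7.27, and Mcm2 1.92 against 3.55 to 8.05. Not every gene was low in it: Mcm7 was 7.55, Dnmt1 12.6 and Pola2 6.84 FPKM, within the control ranges, and Mki67 was 77.9 FPKM, the second highest of the group, while 6 of the 14 mitosis genes lay below all 7 controls. Epcam was also lowest of the 30 in descending mutant C1 (322 FPKM). Its epithelial markers (2646 FPKM) were the lowest of the 8 descending mutants, with 2511 in descending control A2. The part of these markers was not tested. Without descending mutant C1 25 of the 39 genes lay above 0 in the descending comparison of genotypes, without A3 6, without descending control A2 17 and without descending control C2 31, with no gene called in any of these. Among descending controls, A2, the library with low Hoxd13, was highest for 22 of the 39 genes and C1 lowest for 29. Among ascending controls C2 was lowest for 21. Shares over all genes were not computed for these counts in controls.

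**Figure D5:**
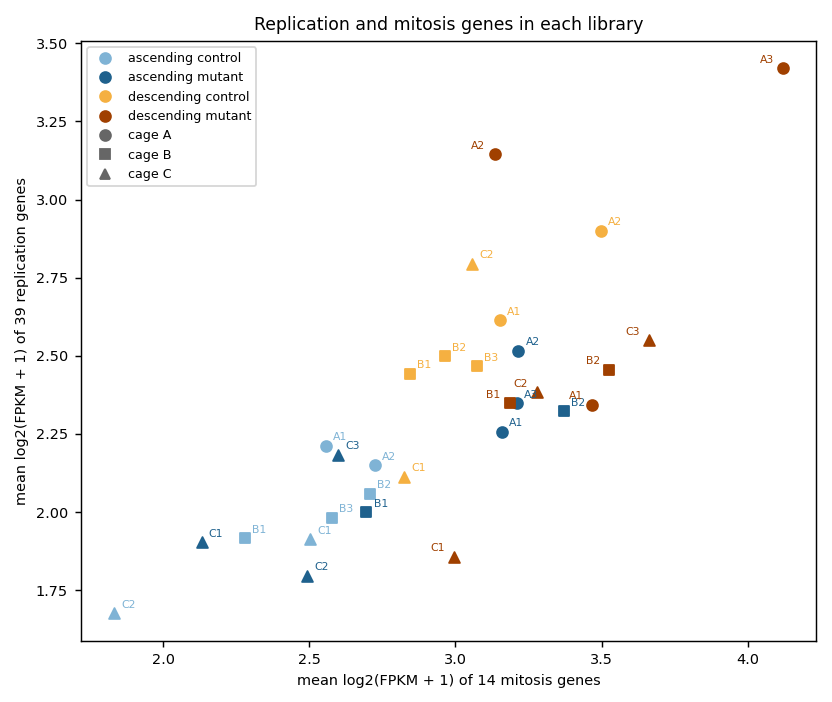
Each point is 1 library, with the mean log2(FPKM + 1) of 14 mitosis genes on the horizontal axis and of the 39 replication genes on the vertical axis; colour gives the group, symbol the cage and the label the cage and number. Descending mutant A2 has the second highest replication mean (3.15) with a mitosis mean of 3.13, and descending mutant C1 lies lowest of the descending libraries at 1.86.

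No difference between the genotype effects of the regions passed its test. The interaction, the ascending effect minus the descending effect, passed for 0% of 12353 genes with limma, and 198 genes had an unadjusted p under 0.05, none of the 39 among them. It was above 0 for 36 of the 39 (median 0.22, all genes -0.01), and for 35 without descending control A2. Rfc4 (0.52, 95% interval -0.22 to 1.25) and Mcm3 (0.49, -0.16 to 1.14) had the largest values. A genotype effect that depends on cage was not called for any of the 39 genes. In the ascending colon 0% of 12178 genes passed limma's F test, and Rfc4 (adjusted p = 0.47) and Pcna (adjusted p = 0.48) were the genes of the set with an unadjusted p under 0.05. The mutant minus control difference of Pcna was -0.008 in cage A, -0.23 in cage B and 0.71 in cage C, and that of Rfc4 0.68, -0.34 and 1.10. Without ascending mutant B2, 2 of the 39 genes were called among 381. In the descending colon 0.00818% of 12219 genes passed the same test, none of the 39 among them, and without descending control A2 none of the 39 passed either. Cages B and C, which share a strain label, had no called difference in any of the 39 genes. In the ascending colon 0% of 12205 genes were called; 33 of the 39 lay higher in cage B (median 0.19), 4 with an unadjusted p under 0.05, which 1.73% of all genes reached in that direction. All 14 mitosis genes also lay higher in cage B (median 0.48, 7 with an unadjusted p under 0.05). In the descending colon 28 of the 39 lay higher in cage B, and 0.033% of 12128 genes were called.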

How the data were processed

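RNA-seq of 30 libraries (7 control and 8 mutant libraries in each of the ascending and descending colon) was read from 1 table. The authors deposited FPKM values per gene, without read counts. The submitters' processing notes name bcl2fastq 2.17, STAR, DESeq2, GRCm38 and mm10; the gene counter, its use of strand and its annotation are not stated in those notes or the labels, so reads of overlapping genes may be shared. All table columns were matched to samples by title (0 left unmatched), and a depth per library was estimated from the steps between low FPKM values.

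Tests used limma 3.58.1 (trend) in R 4.3.3 on log2(FPKM + 1), with a pseudocount of 1, genes reaching a mean of 0.5 FPKM in the libraries compared, cage as a covariate and Benjamini-Hochberg adjustment over all genes, two-sided, at 0.05. The scripts were tested on simulated data. Nothing in the labels says whether the ascending and descending libraries of a number came from 1 mouse, and the main fits do not pair them. Each p-value sets a difference against the residual spread between these samples. The 39 genes, the other lists and the tests were chosen with earlier results of these data known. Named with values were genes past the threshold, the 2 lowest p of each role in each comparison of genotypes, the highest and lowest gene of each role, and Pcna, Mcm2, Mcm6, Cdt1, Cdc6, Ccne1 and E2f1; genes of low or high libraries were also named after their values were seen. Alternatives were a pseudocount of 0.1, no filter, a filter of 2 FPKM, median-of-ratios scaling, quantile normalization, array weights, leaving out each library or cage, no cage covariate, a replicate block and a joint fit of all 30 libraries. A fit without 2 libraries whose Hoxb13 or Hoxd13 stood apart (ascending control B1, descending control A2) was chosen after seeing the data, as were within-cage and overlap values without descending control A2. Protein sequences were not analysed here.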

Additional observations from a re-analysis of the deposited data

Results flagged for a closer look

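In 14 of 156 sets of values (39 genes in 4 groups of libraries, 8.97%), the highest or lowest library lay far from the rest of its group by Dixon's criterion. For independent values with a normal spread, chance meets it in about 1 of 20. These sets share libraries and hold FPKM, so the 8.97% cannot be set against that rate. Descending control A2, the library with low Hoxb13 and Hoxd13, held 4 of the 14: Mcm10 at 5.01 FPKM (next highest 2.86), Gins3 at 2.67 (1.58), Pold1 at 12.46 (8.04) and Chaf1a at 7.11 (4.33). Rfc4 was low in descending control C1 at 3.5 FPKM (next lowest 5.06). Ascending control B2 was high for Gins3 (2.05 FPKM, next 1.15) and low for E2f1 (0.98, next 1.72). Ascending control C2 was low for Uhrf1 (2.28 FPKM, next 4.27) and high for Ccne1 (2.08, next 1.27). Ascending mutant B1 was high for Cdc6 (3.48 FPKM, next 1.83) and low for Ccne1 (0.92, next 1.60). The 3 ascending mutants of cage A, the shallowest libraries, gave 1 each: Ccne2 low in A1 (0.18 FPKM, next 1.25), Gins2 high in A2 (2.19, next 1.41) and Prim1 high in A3 (4.45, next 2.33). Descending mutants gave none, although A2 and A3 stood above the other 6 for 38 of the 39 genes, since with 2 high libraries neither lies far from its neighbour.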

How the results depend on the processing

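The main limits are the missing counts, the low depth of the ascending mutants of cage A, and groups of 7 and 8 libraries whose cages differ in strain label and age. The number of replication genes called in the ascending comparison of genotypes was 0, and became 4 with array weights, 3 without cage B and 0 to 1 when each library was left out in turn. Between regions, 29 genes were called in controls and 17 without cage B; 21 were called in mutants, 13 under median-of-ratios scaling, 10 under quantile normalization, 9 without cage A and 9 without cage C. The cage-dependent test in the ascending colon called 0 to 2 genes when each library was left out. The causes were not tested. In the added fit without ascending control B1 and descending control A2, 29 genes were called in controls. Single calls between regions in controls also changed. Rfc5, Tk1 and E2f1 each did not pass in 16 of 26 alternative fits, and Rrm2 in 9 of 26. Single genes changed sign as follows. In the ascending comparison of genotypes E2f1 was -0.15 without cage B and -0.00486 to 0.15 with each library left out. In the descending comparison without cage A, Rfc3 was -0.1995, Fen1 -0.18, Rrm2 -0.022, Rrm1 -0.069, Uhrf1 -0.086 and Chaf1a 0.0037; without cage C, Mcm3 was 0.016 and Ccne1 0.17. Chaf1a was 0.0002551 under median-of-ratios scaling, 0.0026 under quantile normalization and 0.0054 with no cage covariate. Ccne1 was 0.023 under quantile normalization and Rfc3 -0.0084 with array weights. With each library left out, Rfc3 ranged from -0.063 to 0.15, Uhrf1 from -0.07012 to 0.22, Chaf1a from -0.14 to 0.077, Mcm3 from -0.24 to 0.017 and Ccne1 from -0.18 to 0.042. Replicate numbers are shared between groups within a cage, and whether they pair the samples was not settled. Deviations of same-numbered libraries correlated at -0.308 to 0.386 between regions (4 of 15 pairs over 0.1) and at -0.212 to 0.431 between genotypes (6 of 12). Between regions, a cage with 2 libraries of a genotype gives the same value for both of its pairs. Libraries with different numbers were not compared, so these values cannot decide it. With a replicate block, 26 genes were called between regions in controls, 21 in mutants and 0 in each comparison of genotypes, and in the descending comparison Rfc3 was -0.055, Fen1 -0.069, Rrm2 -0.016, Rrm1 -0.025 and Uhrf1 -0.094.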
